A study of Mus musculus with 384 samples.

Results

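Notch pathway and Hes genes were measured in single mouse pluripotent cells, as 10 genes chosen by name from the 31617 genes of the count table: the receptors Notch1, Notch2 and Notch3, the ligands Dll1, Dll3 and Jag1, the nuclear partner Rbpj, and the bHLH factors Hes1, Hes6 and Hey1. Smart-seq2, which copies full-length mRNA of a sorted cell, was applied to 96 cells of each of 4 lines derived from mouse epiblast. Formative stem (FS) cells are cultures meant to hold the early post-implantation epiblast state, and epiblast stem cells (EpiSCs) are cultures of a later, primed state. The FS cell lines 5ar1 and 5ar2 were kept in AloXR (A3XR in the sample labels), which combines low activin, the tankyrase inhibitor XAV939 and the retinoic acid receptor inverse agonist BMS493. EpiSC line AFX6 was kept in AFX (activin, Fgf2 and XAV939), and EpiSC line AF32 in AF (activin and Fgf2 without XAV939). All 4 cultures were free of feeder cells. The line is the replicate, so FS cells and EpiSCs are represented by 2 lines each. Each EpiSC medium is represented by 1 line, so line and medium cannot be told apart.

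Notch signalling passes between touching cells. A Delta or Jagged ligand on a cell binds a Notch receptor on its neighbour, the receptor is cleaved, and its intracellular part joins the DNA-binding protein Rbpj in the nucleus to switch on targets such as Hes1, Hey1, Hes5 and Nrarp. Hes1 and Hey1 are repressors, whereas Hes6 is known to antagonise Hes1 and to favour neuronal differentiation. Dll3 differs from the other ligands in that it acts inside the same cell and does not activate receptors on neighbours. In the early mouse embryo Notch signalling is best known for pacing the presomitic mesoderm and for lateral inhibition in neural tissue.

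Cells with at least 3000000 counts were kept, which were 90 of 5ar1, 90 of 5ar2, 66 of AFX6 and 80 of AF32, or 326 of 384 in all. Their totals lay between 3022666 and 6686007 counts, so that a level of 5 CPM (reads of a gene for each 1000000 reads counted in that cell) stood for 22.0 to 25.3 counts in a cell of median depth. The median number of detected genes was 11371 and 11567.5 in 5ar1 and 5ar2, against 10328 and 10330.5 in AFX6 and AF32. The label was checked against marker genes: Pou5f1, the defining factor of pluripotent cells, reached 5 CPM in 97.8%, 98.9%, 98.5% and 97.5% of cells of 5ar1, 5ar2, AFX6 and AF32. The summed level of 6 naive markers had a median of 0 CPM in each line. These markers were alike in all lines, so they do not tell FS cells from EpiSCs. Among other pluripotency markers, summed Fgf5 was 229 and 272 CPM in 5ar1 and 5ar2, against 30.7 and 44.9 CPM in AFX6 and AF32. Nanog was 28.5 and 33.5 CPM against 159 and 400 CPM in the same order. Utf1 did not separate the types, with 799 and 723 CPM against 1057 and 302 CPM. The 6 cells under 5 CPM of Pou5f1 (2 of 5ar1, 1 of 5ar2, 1 of AFX6 and 2 of AF32) were kept, and the values without them are given where they matter. Reads carry no molecular identifiers, so copies of a molecule are counted as separate reads. Intervals of summed levels and folds below cover the counting of reads only and not the spread between cells. Intervals of shares cover the counting of cells only.

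The RefSeq promoter table of GRCm38.p6 held 8 of the 10 genes, in 11 windows. Hes1 and Hey1 were not among them. The 250 bases before the start of transcription were searched on both strands for GTGGGAA, the core sequence that Rbpj recognises. None of the 11 windows held it, and 5.42% of all 32851 windows did, so 0 of 11 is near the background. Both windows printed here hold no annotated exon and are shown because Notch3 was the receptor with the largest difference between FS cells and EpiSCs, and Hes6 had the highest level per length. Notch3 lies on the minus strand and its window is chr17:32166891-32167140. Hes6 lies on the minus strand and its window is chr1:91414039-91414288.
Notch3: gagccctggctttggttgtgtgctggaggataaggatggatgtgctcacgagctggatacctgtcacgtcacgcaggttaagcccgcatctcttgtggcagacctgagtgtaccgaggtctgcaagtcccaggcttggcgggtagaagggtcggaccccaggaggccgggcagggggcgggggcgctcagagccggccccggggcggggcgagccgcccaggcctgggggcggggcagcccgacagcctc
Hes6: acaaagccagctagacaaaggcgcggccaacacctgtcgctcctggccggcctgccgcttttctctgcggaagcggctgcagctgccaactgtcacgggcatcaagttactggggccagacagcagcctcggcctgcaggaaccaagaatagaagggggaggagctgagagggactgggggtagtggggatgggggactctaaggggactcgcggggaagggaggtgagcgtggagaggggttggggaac

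Hes5, a Hes gene outside the 10 genes that was nearly silent in these cells, is shown as an example of a match and held the core at 2 places of its window, 226 and 83 bases before the start. The 30 bases around each are shown with the core, or its reverse complement, in capitals, on the plus strand at chr4:154960686-154960715 and chr4:154960829-154960858. A match is a description of the letters and not a measured binding site.
Hes5 at 226 bases: gggcgagcgcgTTCCCACagcccggacatt
Hes5 at 83 bases: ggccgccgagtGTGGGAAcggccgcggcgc

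Each of the receptors was found in a large part of the cells of every line, but their patterns differed. Notch2 (GRCm38 chromosome 3, 98013527 to 98150361, plus strand) was the receptor found in the largest share of cells in each line and reached 5 CPM in 91.1% of 5ar1, 98.9% of 5ar2, 92.4% of AFX6 and 86.3% of AF32 cells. Its level per cell was 17.1 ± 15.2 CPM (mean and SD over 90 cells) in 5ar1, 45.8 ± 25.2 CPM (90 cells) in 5ar2, 31.8 ± 29.3 CPM (66 cells) in AFX6 and 34.0 ± 60.0 CPM (80 cells) in AF32. The FS cell lines thus stood at both ends, with the EpiSC lines between them. It had the lowest SD relative to its mean of the 3 receptors in 5ar1, 5ar2 and AFX6, but the highest in AF32.

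Notch1 (chromosome 2, 26457903 to 26516663, minus strand) was found in nearly the same share of cells in each line, namely 47.8%, 47.8%, 57.6% and 47.5% of 5ar1, 5ar2, AFX6 and AF32 cells. The exact 95% intervals of these shares overlap, from 37.1 to 58.6% in each FS cell line, 44.8 to 69.7% in AFX6 and 36.2 to 59.0% in AF32. Cells were either well above or close to 0, and 2 to 10 cells of a line lay between 1 and 5 CPM. Among the cells with at least 5 CPM, the median level was 34.9 CPM in 5ar1, 39.3 CPM in 5ar2, 48.0 CPM in AFX6 and 58.8 CPM in AF32. Mean levels over all cells were 21.4 ± 35.0, 22.9 ± 45.6, 41.5 ± 70.2 and 36.9 ± 62.5 CPM. Notch1 was therefore lower in both FS cell lines by its level in the cells that had it, while the share of such cells was alike in 5ar1, 5ar2 and AF32.

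Notch3 (chromosome 17, 32120820 to 32166852, minus strand) was ordered alike in share and level, along 5ar1, 5ar2, AFX6, AF32. It reached 5 CPM in 45.6% (exact 95% interval 35.0 to 56.4%), 60.0% (49.1 to 70.2%), 71.2% (58.7 to 81.7%) and 76.3% (65.4 to 85.1%) of cells. The intervals of neighbouring lines in this order overlap, and those of 5ar1 and both EpiSC lines do not. Mean levels were 12.4 ± 16.7, 22.6 ± 29.2, 42.2 ± 50.2 and 66.5 ± 72.9 CPM. The exons of Notch1 and Notch3 overlap annotated transcripts of the opposite strand and those of Notch2 a transcript of the same strand, and counts in such stretches cannot be assigned to a strand with this kit.

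**Figure D1:**
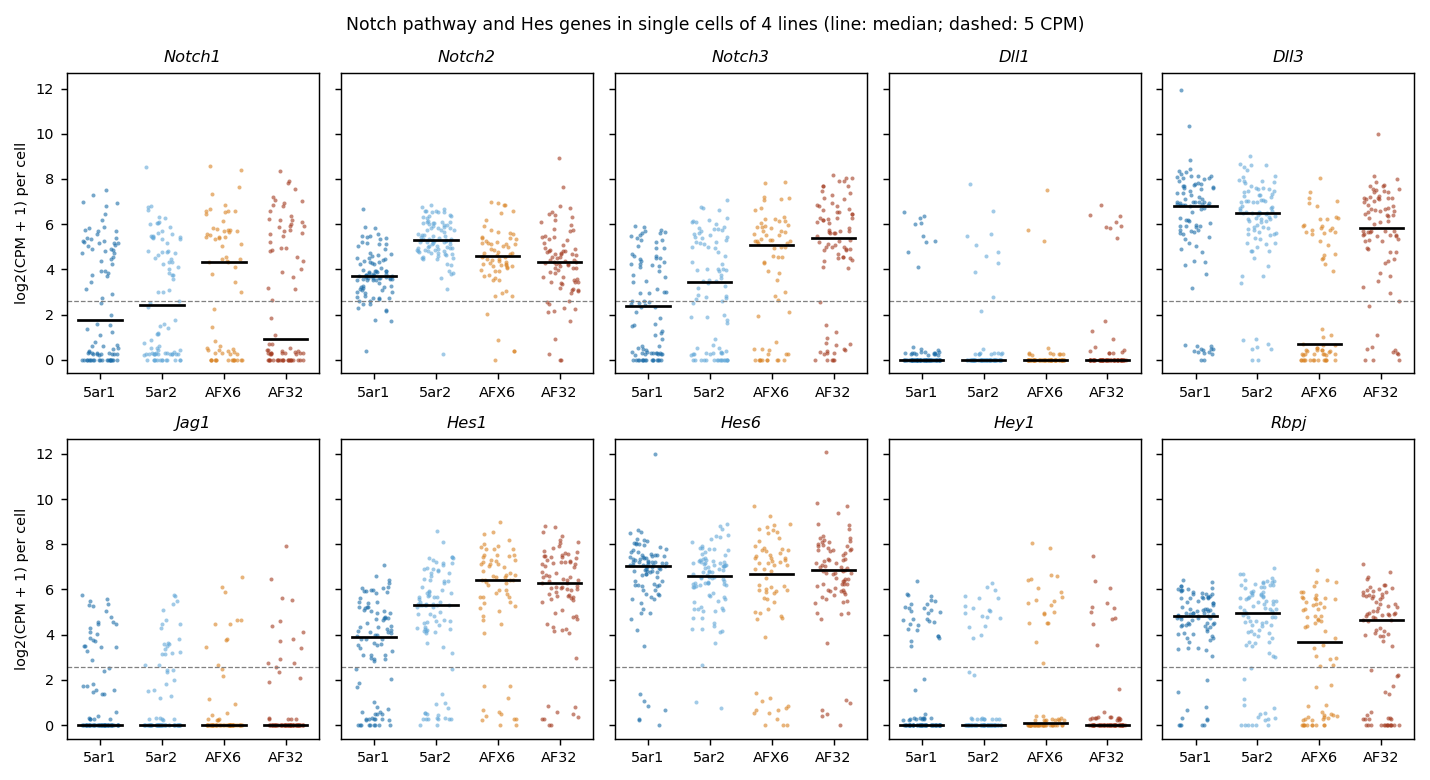
Level of each of the 10 genes in every kept cell, as log2(CPM + 1) on the y axis, for the 4 lines on the x axis (90, 90, 66 and 80 cells). Each point is a cell, the black bar is the median and the dashed line is 5 CPM. Dll1, Jag1 and Hey1 have medians at or near 0 in each line, whereas Notch2 has few cells near 0 in each line and Hes6 few outside AFX6.

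The ligands split into a broadly found gene and a pair of rare ones. Dll3 (chromosome 7, 28293553 to 28302238, minus strand) reached 5 CPM in 84.4% of 5ar1, 91.1% of 5ar2 and 86.3% of AF32 cells, but in 43.9% of AFX6 cells (exact 95% interval 31.7 to 56.7%). Its median over cells was 112 CPM in 5ar1, 88.6 CPM in 5ar2, 0.614 CPM in AFX6 and 57.1 CPM in AF32. Among cells with at least 5 CPM the medians were closer, at 121, 91.1, 56.4 and 82.7 CPM. AFX6 therefore stood apart mainly by its cells without Dll3, since 35 of 66 were under 1 CPM.

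Dll1 (chromosome 17, 15367354 to 15376872, minus strand), the ligand best known for activating Notch receptors in mesoderm and neural tissue, was found in 11.1% of cells of each FS cell line, 4.55% of AFX6 and 10.0% of AF32 cells. These few cells had substantial levels, with a median of 53.2 CPM in 10 cells of 5ar1, 29.5 CPM in 10 cells of 5ar2, 52.1 CPM in 3 cells of AFX6 and 63.6 CPM in 8 cells of AF32. The highest 5% of cells held between 61.0% (AF32) and 99.4% (AFX6) of the line's summed CPM of Dll1. Jag1 (chromosome 2, 137081456 to 137116644, minus strand), a ligand of the Jagged class, was found in 26.7% of 5ar1, 23.3% of 5ar2, 16.7% of AFX6 and 16.3% of AF32 cells, with mean levels from 4.9 to 6.8 CPM. The intervals of the 4 shares of Dll1, and of those of Jag1, overlap.

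Hes1 (chromosome 16, 30064384 to 30067796, plus strand) was the effector that differed most between the lines. Its level per cell was 21.9 ± 25.7 CPM in 5ar1, 55.6 ± 64.3 CPM in 5ar2, 106 ± 101 CPM in AFX6 and 107 ± 99.2 CPM in AF32. The share of cells with at least 5 CPM was 67.8% (57.1 to 77.2%), 78.9% (69.0 to 86.8%), 81.8% (70.4 to 90.2%) and 88.8% (79.7 to 94.7%). Among these cells the medians were 24.9, 47.0, 98.5 and 87.8 CPM, so the level moved more than the share. AFX6 and AF32 were neighbours in the order and did not differ in their summed level of Hes1 beyond counting error.

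Hes6 (chromosome 1, 91411483 to 91414038, minus strand) was the most abundant of the 10 genes per length, with 66.5 to 118 CPM per kb of exon in the 4 lines. Dll3 came next in 5ar1 and 5ar2, with 60.4 and 40.4 CPM per kb, and Hes1 in AFX6 and AF32, with 52.2 and 52.4 CPM per kb. Hes6 reached 5 CPM in 92.2%, 97.8%, 80.3% and 92.5% of 5ar1, 5ar2, AFX6 and AF32 cells. Its medians lay close together, at 129, 96.5, 101 and 114 CPM. Its means, 174 ± 423, 120 ± 97.5, 146 ± 164 and 213 ± 494 CPM, were raised in 5ar1 and AF32 by a single cell each. Without the highest cell of each line they were 131 ± 87.9, 116 ± 90.4, 136 ± 141 and 161 ± 169 CPM.

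Hey1 (chromosome 3, 8663359 to 8667256, minus strand) was found in 32% of 5ar1, 20.0% of 5ar2, 31.8% of AFX6 and 13.8% of AF32 cells, with mean levels of 10.2 ± 17.2, 7.55 ± 16.9, 20.9 ± 47.7 and 6.98 ± 24.2 CPM. Rbpj (chromosome 5, 53466152 to 53657362, plus strand) was found in 86.7% (77.9 to 92.9%) of 5ar1, 81.1% (71.5 to 88.6%) of 5ar2, 60.6% (47.8 to 72.4%) of AFX6 and 65.0% (53.5 to 75.3%) of AF32 cells. Its level in the cells that had it was alike, with medians of 30.0, 37.6, 33.8 and 35.9 CPM, so that the lines differed by the share of cells. Rbpj has 2 annotated processed pseudogenes, which can take some of its reads, and its values are uncertain to that extent.

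**Figure D2:**
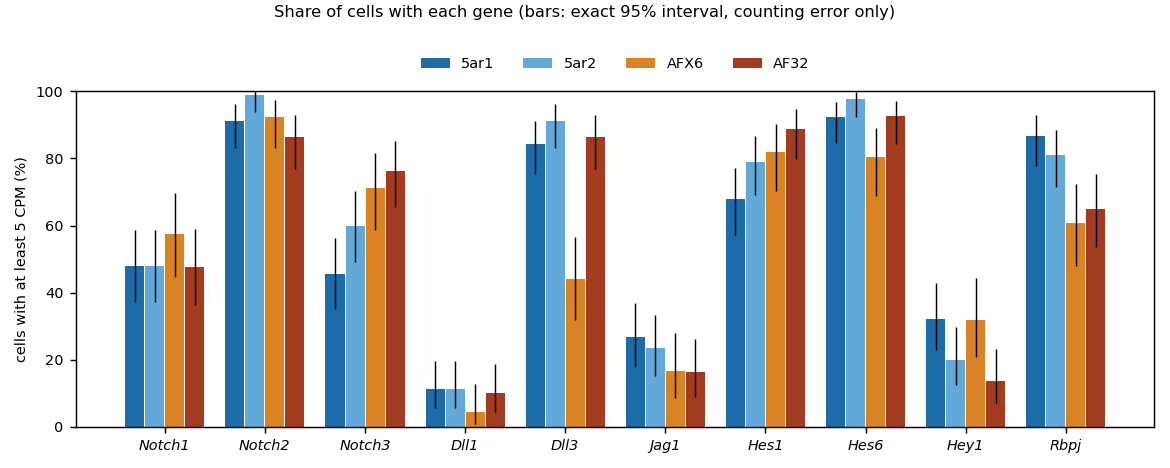
Share of cells with at least 5 CPM of each of the 10 genes, in percent on the y axis, with a bar for each of the 4 lines. Error bars are exact 95% intervals and cover counting error only. Dll3 stands at 43.9% in AFX6 against 84.4 to 91.1% in the other lines, and Dll1 does not exceed 11.1% in any line.

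The question of the main comparison is which of these genes differ between FS cells and EpiSCs. Notch1, Notch3 and Hes1 had lower line levels in both FS cell lines than in both EpiSC lines, whereas Dll3 and Rbpj had higher ones. Levels of a line are the summed counts of its kept cells as CPM with TMM scaling. None of the 10 genes passed the test across all genes (edgeR quasi-likelihood, adjusted p under 0.05), nor did any of the 22606 genes tested, of which 0% were called. In simulated data at the common dispersion of these sums, 0.653, this test recovered 0 of 200 genes changed 4-fold. The absence of calls therefore does not show that levels were alike. At an unadjusted p under 0.05 the same test gave 3 of the 10 genes, all lower in FS cells, and 3636 genes in all (16.1%, with 7.02% lower and 9.06% higher in FS cells). DESeq2 on the same sums called the same 3 genes at an adjusted p under 0.05, and 2500 genes in all (11.5%, with 5.90% lower and 5.60% higher in FS cells). limma called 3 genes (0.0210%), none of them among the 10.

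Notch1 had line levels of 20.7 CPM in 5ar1, 23.0 CPM in 5ar2, 41.8 CPM in AFX6 and 36.4 CPM in AF32. The FS cell lines lay below the EpiSC lines, with a log2 fold change (FS minus EpiSC) of -0.84 ± 0.22 (SE), an edgeR adjusted p of 0.204 and a DESeq2 adjusted p of 0.0107. Notch3 had 12.5, 22.7, 42.6 and 64.9 CPM in the same order, a log2 fold change of -1.61 ± 0.42, an edgeR adjusted p of 0.200 and a DESeq2 adjusted p of 0.00525. Hes1 had 21.7, 55.2, 111 and 107 CPM, a log2 fold change of -1.5 ± 0.5, an edgeR adjusted p of 0.266 and a DESeq2 adjusted p of 0.0260. For Notch3 and Hes1 the line 5ar2 stood between 5ar1 and the EpiSC lines.

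Dll3 had line levels of 171 CPM in 5ar1, 118 CPM in 5ar2, 32 CPM in AFX6 and 94.0 CPM in AF32. Both FS cell lines lay above, with a log2 fold change of 1.2 ± 0.6 (edgeR adjusted p = 0.430), and the distance rested mostly on AFX6: without that line the log2 fold change was 0.62. Rbpj had 29.1, 35.5, 23.0 and 26.9 CPM and a log2 fold change of 0.37 ± 0.25 (edgeR adjusted p = 0.574). The lines overlapped for the other 5 genes, whose log2 fold changes were -0.04 ± 0.53 for Notch2, 0.15 ± 0.58 for Dll1, -0.10 ± 0.42 for Jag1, -0.31 ± 0.30 for Hes6 and -0.58 ± 0.58 for Hey1. Among all genes tested, FS cell lines lay above both EpiSC lines for 26.6% and below for 21.7%, or 48.3% either way, so 2 of 10 genes above and 3 of 10 below are shares near this background. The median log2 fold change was -0.20 over the 10 genes and -0.01 over all genes tested. Without the cells under 5 CPM of Pou5f1 the log2 fold changes of Notch1, Notch3 and Hes1 were -0.74, -1.64 and -1.52. With 2 lines against 2, an exact permutation test cannot give a two-sided p below 0.333.

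The other genes of the pathway were read from a list of 59 genes, of which 57 were in the table and 55 were tested. edgeR called 0 of them, and at an unadjusted p under 0.05 it gave 4 lower and 4 higher in FS cells, the same numbers as DESeq2 at an adjusted p under 0.05. These are shares near those over all genes, 7.02% lower and 9.06% higher by edgeR and 5.90% and 5.60% by DESeq2. Both FS cell lines lay above both EpiSC lines for 16, below for 11 and overlapped for 28, and the median log2 fold change was 0.01. The shares over all genes were 26.6% above and 21.7% below. By role, FS cells lay below for 3 of 4 genes of ligand endocytosis and 4 of 9 of receptor cleavage, and above for 0 of either. They lay above for 2 of 5 genes of receptor glycosylation and 2 of 7 of the nuclear complex, and below for 0 of either. Of 10 corepressors of Rbpj 6 lay above and 1 below, of 9 negative regulators 4 above and 2 below, and of 6 other Hes, Hey and related genes 2 above and 1 below. The 4 other ligands and the other receptor overlapped.

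The largest differences among other pathway genes with at least 5 CPM in a line and lines that did not overlap were found for Bhlhe40, Nrarp and Lfng. Bhlhe40, a bHLH repressor related to the Hes factors, had 22.9 CPM in 5ar1, 15.0 CPM in 5ar2, 134 CPM in AFX6 and 112 CPM in AF32, with a log2 fold change of -2.70 ± 0.30 (edgeR adjusted p = 0.190, DESeq2 adjusted p = 2.2e-12). Nrarp, a Notch target that limits Notch signalling, had 1.7, 1.2, 4.1 and 6.5 CPM and a log2 fold change of -1.9 ± 0.6 (edgeR adjusted p = 0.243, DESeq2 adjusted p = 0.0142). Lines that do not overlap and a large fold were the condition for naming both genes, and Nrarp reached 5 CPM in AF32 alone. Lfng, which adds sugars to Notch receptors, had 8.0, 9.6, 1.2 and 4.7 CPM and a log2 fold change of 1.6 ± 0.8 (edgeR adjusted p = 0.440, DESeq2 adjusted p = 0.219).

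The other 7 were smaller. Neurl1a, a ubiquitin ligase for ligands, Aph1b, a subunit of gamma-secretase, and Dtx3 of the Deltex family had log2 fold changes of -1.3 ± 0.3, -1.2 ± 0.6 and -1.0 ± 0.2. Fhl1 and Spen, which bind Rbpj or repress with it, had 1.4 ± 0.4 and 1.0 ± 0.5, Fbxw7, which targets the receptor's intracellular part for degradation, had 0.9 ± 0.4, and the deacetylase Hdac1 had 0.7 ± 0.2. Their edgeR adjusted p lay between 0.190 (Dtx3 and Hdac1) and 0.476 (Aph1b), and DESeq2 called Neurl1a, Dtx3, Fhl1 and Hdac1.

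The other Hes and Hey genes (Hes3, Hes5, Hes7, Hey2 and Heyl) were near silent, whereas the related Bhlhe41 had 10.2 CPM in 5ar1, 9.1 CPM in 5ar2, 10.1 CPM in AFX6 and 6.9 CPM in AF32. Hes5, a Notch target of neural progenitors, had 0.61 CPM (Poisson 95% interval 0.53 to 0.68) in 5ar1, 1.3 CPM (1.2 to 1.4) in 5ar2, 0 of all counts in AFX6 (up to 0.0111 CPM) and 0.72 CPM (0.64 to 0.82) in AF32. It reached 5 CPM in 4, 7, 0 and 2 cells. Hes7, the oscillating repressor of the presomitic mesoderm, had 1.6, 1.5, 0.16 and 0.13 CPM, and Hes3 had a count of 0 in each line. DESeq2 called Hes7 and Heyl higher in FS cells, Heyl with 1 cell at 5 CPM in each FS cell line and 0 counts in both EpiSC lines.

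**Figure D3:**
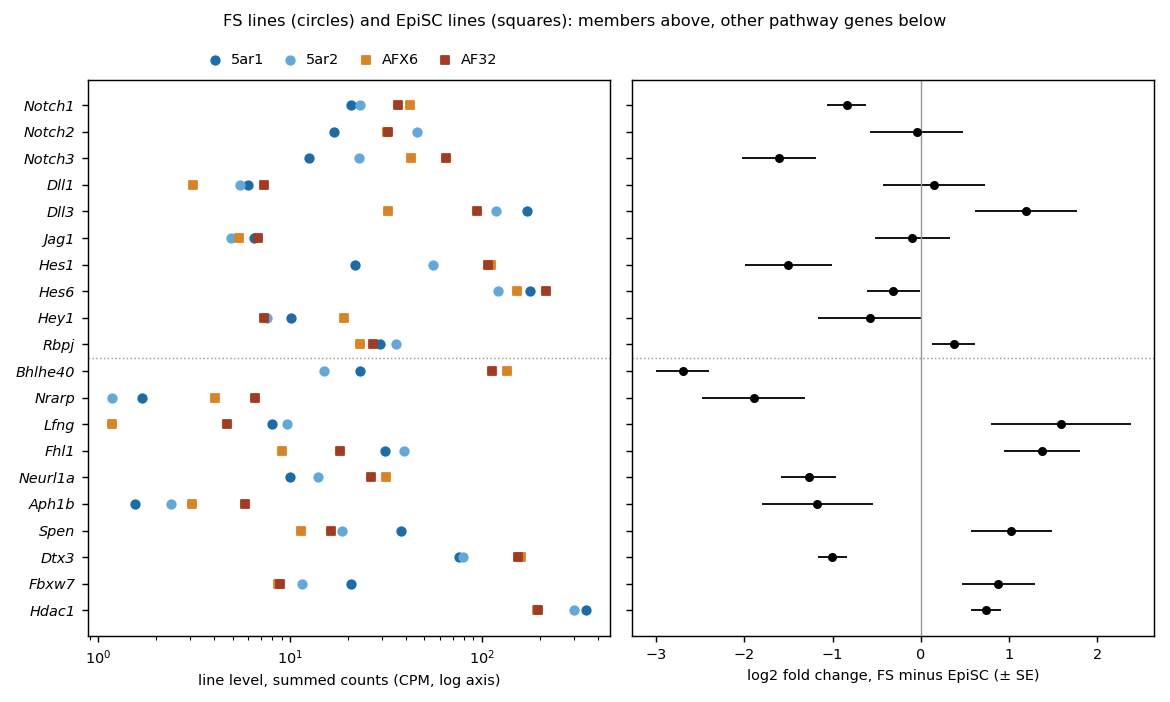
Left, level of each line in CPM on a log axis, with circles for FS cell lines and squares for EpiSC lines; right, log2 fold change of FS cells minus EpiSCs from edgeR with its SE. The 10 genes of the report stand above the dotted line and the 10 other pathway genes named in the text below it. Notch1, Notch3 and Hes1 have both circles left of both squares, and 0 of the genes shown passed the adjusted threshold.

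The FS cell lines were kept in the same medium, and they differed by more than 2-fold in Notch2 and Hes1. Summed Notch2 was 2.7-fold higher in 5ar2 (exact conditional 95% interval 2.6 to 2.8) and Hes1 2.5-fold higher (2.5 to 2.6). Among 10744 genes that reached 5 CPM in 5ar1 or 5ar2, 6.00% were past 2-fold either way, against 2 of the 10 genes. Notch3 was 1.8-fold higher in 5ar2 (1.7 to 1.9), and Hes6 and Dll3 were both 1.5-fold higher in 5ar1. The differences in Hes6 and Dll3 shrank to log2 folds of -0.22 and -0.12 (5ar2 over 5ar1) without the highest 5% of cells, whereas those of Notch2 and Hes1 were 1.5 and 1.3 there. With 1 library set per line these folds compare lines and have no replicate check.

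Between the EpiSC lines, Dll3, Dll1 and Hey1 passed 2-fold. Summed Dll3 was 3.0-fold higher in AF32 (2.9 to 3.1) and Dll1 2.4-fold (2.3 to 2.6), and Hey1 was 2.5-fold higher in AFX6 (2.4 to 2.7). Of 11260 genes, 21.7% were past 2-fold either way, so 3 of 10 genes is a share near the background. Dll1 rested on 3 cells in AFX6. A single AFX6 cell (number 22), which was under 5 CPM of Pou5f1, had the highest Hey1 of that line, 262 CPM. Hes1 was the same in both lines within counting error, with a fold of 0.998 (0.984 to 1.01), and Notch3 was 1.6-fold and Hes6 1.5-fold higher in AF32.

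Nearly every cell had a receptor, so nearly every cell with a ligand had a receptor too, whatever the relation between the genes. At least 1 of the 3 receptors reached 5 CPM in 93.3%, 100%, 98.5% and 98.8% of 5ar1, 5ar2, AFX6 and AF32 cells, and all 3 in 22.2%, 30.0%, 45.5% and 30.0%. Dll1 or Jag1, ligands that activate receptors on neighbours, was found in 34.4% (24.7 to 45.2%) of 5ar1, 34.4% (24.7 to 45.2%) of 5ar2, 21.2% (12.1 to 33.0%) of AFX6 and 23.8% (14.9 to 34.6%) of AF32 cells. Of these cells, 1 in 5ar1 and 0 in the other lines lacked a receptor at this threshold. Jag2, another activating ligand, was found in 24.4%, 27.8%, 34.8% and 10.0% of cells, and with Jag2 and Dll4 counted as well the shares were 52.2% (41.4 to 62.9%) of 5ar1, 52.2% (41.4 to 62.9%) of 5ar2, 48.5% (36.0 to 61.1%) of AFX6 and 26.3% (17.0 to 37.3%) of AF32 cells. Hes1 and Hes6 were found together in 62.2%, 77.8%, 68.2% and 81.3% of cells. Each of these genes was found in most cells of every line, so the joint shares do not show a link between them. Hes6 without Hes1 was found in 30.0% (20.8 to 40.6%) of 5ar1, 20.0% (12.3 to 29.8%) of 5ar2, 12.1% (5.38 to 22.5%) of AFX6 and 11.3% (5.28 to 20.3%) of AF32 cells. These intervals overlap except for 5ar1 and AF32, and the difference was not tested.

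Levels of the 10 genes showed little correlation between the cells of a line. Spearman's rho was computed for 45 pairs in each of 4 lines and is given as a description, since cells of a line are not replicates of it. Its median size over the 180 values was 0.0899, and values ranged from -0.30 to 0.32. A pair was to be described as covarying where rho had the same sign in all 4 lines and reached 0.2 in size in at least 3 of them, also after correction for detected genes and total counts. No pair met this (0 of 45). The pair with the highest mean was Notch3 and Hes1, a receptor and a target gene, whose rho was 0.03 and 0.32 in 5ar1 and 5ar2, and 0.32 and 0.11 in AFX6 and AF32. It was followed by Dll3 and Hes6, with 0.27, 0.30, 0.00 and 0.08. Both pairs thus had their higher values in part of the lines.

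Notch1 and Hes1 had a rho of 0.18 and 0.099 in 5ar1 and 5ar2, and of -0.19 and -0.038 in AFX6 and AF32. None of these reached 0.2 in size, and the AF32 value was 0.015 without the cells under 5 CPM of Pou5f1. Dll1 showed no rho of 0.2 in size with Notch1 or Hes1 in any line. Of the 180 values, 17 reached 0.2 in size and 4 reached 0.3, among them Notch2 and Dll3 in AF32 with -0.30. Sparse genes such as Dll1, found in 3 to 10 cells of a line, can give little correlation at this number of cells. Notch1 too was under 5 CPM in many cells of each line, so low values of rho do not show that levels were independent.

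**Figure D4:**
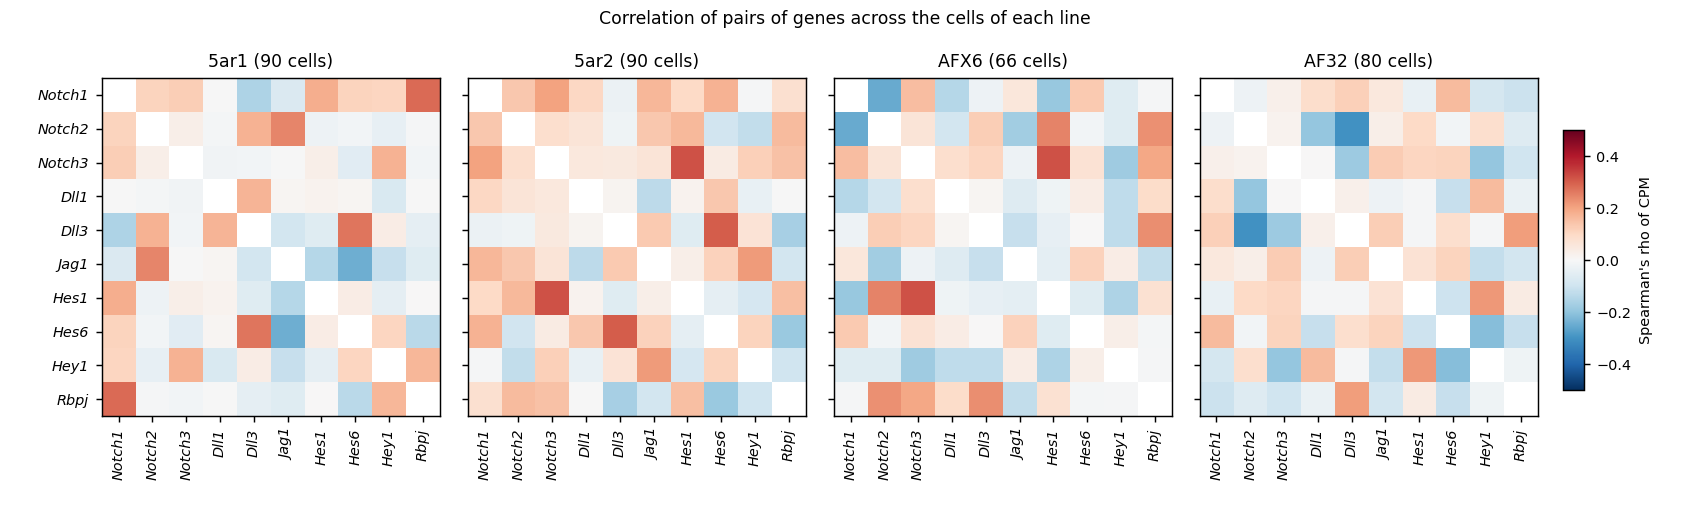
Spearman's rho of each pair of the 10 genes across the cells of each line, on a colour scale from blue (negative) to red (positive). Values lie between -0.30 and 0.32, and no pair reaches 0.2 in size with the same sign in 3 lines.

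For the 7 genes found in at least 20% of cells of every line, the genes most like them were ranked by the mean over the 4 lines of the within-line rho, among genes with at least 20 CPM in each line. There were 5758 or 5759 such genes, so the values given are the highest of many. They were not corrected for detected genes, with which Notch1 had a rho of 0.26, 0.30, 0.22 and 0.11 in 5ar1, 5ar2, AFX6 and AF32. Tcf7l1, a repressor of Wnt targets, was most like Notch1, with a mean rho of 0.30 (0.18, 0.36, 0.36 and 0.31 in 5ar1, 5ar2, AFX6 and AF32). Slc22a17 and Crip2 followed with means of 0.27 and 0.26. For Notch3 the nearest was Dgkd (0.25), for Notch2 Pnrc2 (0.23), for Dll3 Spast (0.27), for Hes6 Atf1 (0.27), for Hes1 S100a10 (0.24) and for Rbpj Tubb6 (0.23). Notch2, Notch3, Dll1, Jag1 and Hey1 were under 20 CPM in some or all lines, so they could not be ranked. Of the members that could be, Notch1, Dll3, Hes1, Hes6 and Rbpj, none was among the 3 nearest of any of the 7 genes. This adds nothing to the pairs above, whose highest mean rho was 0.19.

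A few cells stood far from the rest in Dll3 and Hes6. The highest cell of 5ar1 in both genes (number 66) had 3959 CPM of Dll3 and 4062 CPM of Hes6, with a count of 0 for Notch1, Notch3, Hes1 and Hey1. Its Notch2 was 45.7 CPM, its Dll1 77.3 CPM and its Jag1 52.5 CPM. This cell also had 249 CPM of Neurod1 and 1835 CPM of Tubb3, which mark neurons and their precursors, 0 CPM of the neuronal marker Dcx, 295 CPM of Hand1 from the trophoblast list, and 291 CPM of Pou5f1. The highest cell of AF32 in both genes (number 65) had 1031 CPM of Dll3, 4314 CPM of Hes6, 0.39 CPM of Hes1 and 1903 CPM of Tubb3, with 144 CPM of Pou5f1. It also had 213 CPM of Dcx, 125 CPM of Neurog1 and 71.1 CPM of Neurod1. Its summed streak and trophoblast markers were 251 and 105 CPM. Unlike the 5ar1 cell it had Notch1, at 190 CPM, with 0.195 CPM of Notch2 and a count of 0 for Notch3. Both cells had few detected genes: 1.1% of 5ar1 cells and 3.8% of AF32 cells had fewer.

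A further 5ar1 cell (number 26) with 10109 CPM of Tubb3, 783 CPM of Dcx, 0 CPM of Neurod1 and Neurog1 and 3.41 CPM of Pou5f1 had 1290 CPM of Dll3 and 129 CPM of Hes6, with counts of 0 for Notch1, Notch3 and Hes1. It had the fewest detected genes of the kept 5ar1 cells, 9187. A further AF32 cell (number 70) had 2369 CPM of T, a primitive streak factor, and 1.9 CPM of Pou5f1, with 156 CPM of Hes6, 0.344 CPM of Dll3 and a count of 0 for Hes1. Its Notch1 was 224 CPM. These cells were chosen after their values were seen, as the highest cell of a gene or as a cell under 5 CPM of Pou5f1. Of the cells under 5 CPM of Pou5f1, number 26 of 5ar1 alone joined high Dll3 to a count of 0 for Hes1. Another 5ar1 cell (number 41) had the highest Hes1 of its line, 133 CPM, with Dll3 and Hes6 under 5 CPM. Its Tubb3 was 213 CPM and its Neurod1 43.9 CPM. A 5ar2 cell (number 49) had 18.3 CPM of Hes1 and a count of 0 for Dll3. An AF32 cell (number 74) had 48.2 CPM of Hes1, 45.9 CPM of Dll3 and 240 CPM of Hes6.

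**Figure D5:**
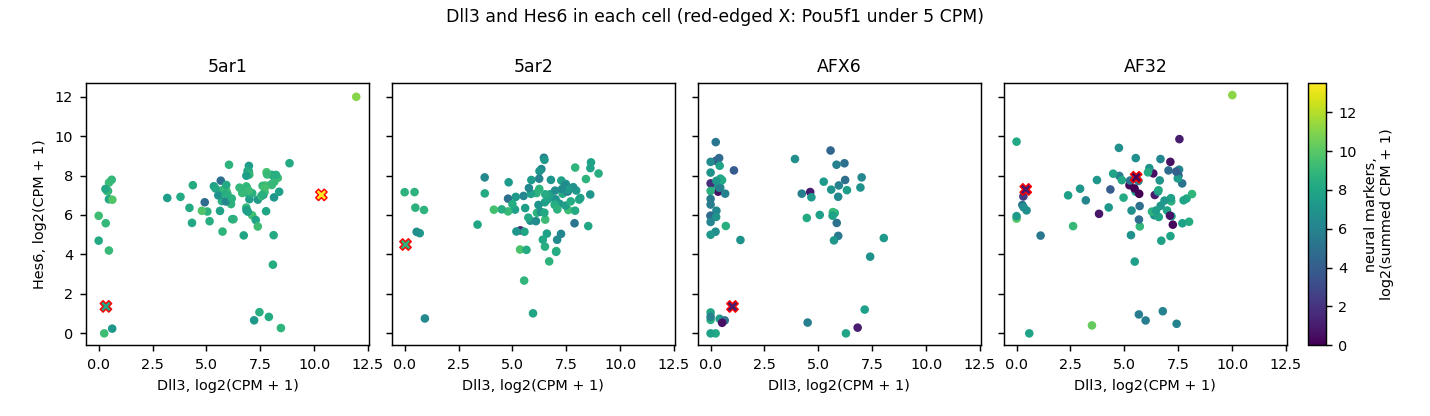
Dll3 (x axis) and Hes6 (y axis) in each kept cell as log2(CPM + 1), by line, coloured by the summed CPM of 10 neural markers. Cells under 5 CPM of Pou5f1 carry a red-edged cross. A cell in 5ar1 and a cell in AF32 stand at the upper right, with 4062 and 4314 CPM of Hes6.

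Across all cells of a line, the summed level of 10 neural markers had a median of 353 CPM in 5ar1, 212 CPM in 5ar2, 96.8 CPM in AFX6 and 111 CPM in AF32. This sum can rest mostly on Tubb3, which made up 668 of 707 CPM in a 5ar1 cell (number 58), but 148 of 579 CPM in another (number 67). The rho of the sum with the 10 genes ranged from -0.25 (Hes6 in 5ar2) to 0.24 (Notch3 in 5ar2) over the 4 lines. Over 6 marker lists 7 of 240 values reached 0.25. In 5ar2, Dll3 and Hes6 had a rho of 0.38 and 0.39 with the summed pluripotency markers and Hes1 one of -0.31. In AF32, Hes1 had a rho of 0.30 with the summed endoderm markers, which had a median of 0 CPM. Their part in the differences between FS cells and EpiSCs was not tested.

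Part of the cells of some lines had raised expression of a whole chromosome. The ratio of the gene's chromosome to the median autosome was above 1.2 in 32 of 90 cells of 5ar2 for chromosome 16, which holds Hes1, and in 29 of 80 cells of AF32 for chromosome 2, which holds Notch1. The rho of Hes1 with its ratio was 0.23 in 5ar2, and that of Notch1 0.27 in AF32. Notch3 had 0.28 in AFX6 and 0.30 in AF32 with chromosome 17, where 7 of 66 and 2 of 80 cells were above 1.2. The part of these chromosomes in the line levels of Hes1, Notch1 and Notch3 was not tested.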

How the data were processed

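The data are Smart-seq2 libraries of single mouse cells, grouped by the line given in the sample labels. The authors aligned reads with STAR 2.7.3a to GRCm38.p6, counted uniquely mapped reads per Ensembl gene with featureCounts 2.0.0, and deposited the raw counts of 384 cells over 31617 genes. A second deposited table holds the authors' normalized values, a depth-corrected score for 23574 genes in 326 cells, used here as an alternative for correlations. Reads were not realigned, so the exclusion of multi-mapping reads remains in all values.

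Counts were divided by the cell's total to give CPM. Gene symbols came from the Ensembl identifiers, and positions and exon lengths (union of exons) from GENCODE M21. Counts of kept cells were summed by line, scaled by TMM and filtered by filterByExpr, and FS cells were compared with EpiSCs by the quasi-likelihood test of edgeR 4.0.16 with Benjamini-Hochberg adjustment (R 4.3.3). DESeq2 1.42.0 and limma 3.58.1, on log2(mean CPM + 1), were alternatives. The model was tested on simulated data with 200 genes changed 4-fold and the same dispersion for all genes. At a dispersion of 0.05, 198 of 200 were recovered with 10 false calls. At 0.653, the common dispersion of these sums, 0 of 200 were recovered. Single genes can have another dispersion, so this does not give the power for each of them. Shares have Clopper-Pearson intervals and folds exact conditional intervals (scipy 1.17.1), both at 95%. Correlations are Spearman's rho within a line.

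The members and lists were chosen with earlier results of these data known. Named were the 10 members, up to 10 other pathway genes with the largest log2 fold change among those with at least 5 CPM in a line and lines that do not overlap, and the 3 genes most like each member. Of the listed genes, Tle2, Hes2, Zfp42, Msgn1, Evx1, Cdx1, Cdx2, Cer1 and Ttr were not analysed here, and some neural markers beyond the 10 used are not reported here. The labels do not say which cells share a plate or a culture, and p-values over lines measure the spread between 2 lines of a type.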

Additional observations from a re-analysis of the deposited data

How the results depend on the processing

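The count of genes called between FS cells and EpiSCs was 0 with edgeR and remained 0 with DESeq2 size factors, without the filter on low counts, with all cells, with cells of at least 4000000 counts, with cells thinned to 1000000 counts, without cells under 5 CPM of Pou5f1 (an alternative chosen after seeing the data) and with each line left out in turn. A line left alone in its group was taken to vary like the others. DESeq2 called 2500 genes and 3 of the 10 members, and limma called 3 genes and 0 members; the cause of this difference between the tests was not tested. Unadjusted edgeR p values under 0.05 numbered 1208 without 5ar1, 1211 without 5ar2, 4589 without AFX6 and 5192 without AF32, against 3636 with all lines.

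The log2 fold change (FS minus EpiSC) turned its sign for Notch2 to 0.011 with thinned cells, 0.033 with cells of at least 4000000 counts and 0.0064 without cells under 5 CPM of Pou5f1, and for Jag1 to 0.12 with cells of at least 4000000 counts. With a line left out it ranged from -0.94 to 0.48 for Notch2, from -0.34 to 0.89 for Dll1, from -0.34 to 0.091 for Jag1 and from -1.12 to 0.27 for Hey1. Notch1 ranged from -0.94 to -0.74, Notch3 from -2.10 to -1.27, Hes1 from -2.32 to -1.01 and Dll3 from 0.62 to 2.2, without a change of sign. The number of covarying pairs was 0 of 45 under each of 5 alternatives. Of 240 alternative values of shares of cells, 8 left the exact interval of the main share, 5 of them at a threshold of 1 CPM and 2 at 10 CPM. Those at 1 CPM were of Notch2 in 5ar1 and AF32, Notch1 in 5ar2, and Notch3 and Jag1 in 5ar1. No paired analysis was possible because the numbers of the cells only name them and the lines, which are the replicates, carry no shared number.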
